A study of Mus musculus with 60 samples.

Results

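Cxcl1, Cxcl2, Cxcl3 and Cxcl5 encode secreted chemokines that attract neutrophils through the receptor CXCR2. The 4 genes were chosen by symbol, and each was read by the probe set (the group of short oligonucleotides on the array that targets a transcript) with the highest mean over all arrays. All 4 had a probe set and all 4 passed the filter on dim genes, among 14513 genes tested. The probe sets are 1457644_s_at for Cxcl1, 1449984_at for Cxcl2, 1438148_at for Cxcl3 and 1419728_at for Cxcl5. The readout is messenger RNA in a dish of hepatocytes, so that secreted protein and neutrophil migration were not analysed here.

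The cells were primary hepatocytes of male C57BL/6N mice aged 8 to 12 weeks, from 1 animal or a pool of up to 3, attached to collagen for 4 h and then kept for 24 h in medium without serum. Every arm, the unstimulated one included, had 100 nM dexamethasone, a glucocorticoid, in that medium. Cells then received recombinant murine hepatocyte growth factor (HGF, 40 ng/ml), recombinant human interleukin 6 (IL-6, 40 ng/ml), both, or neither, and were sampled after 0.5 h and 2 h, then at 4 and 8 h, and last at 16 h, 24 h and 32 h. Unstimulated cells were also sampled at 0 h. The table holds 2 arrays per arm and hour and 4 at 0 h, 60 arrays in 29 groups, whereas the series text speaks of 3 biological replicates. Whether the arrays within a group stem from different animals is not stated, and p-values then describe only the scatter among these arrays, which may be technical. All values are of bulk RNA, in which fewer cells of a type and less RNA per cell cannot be told apart.

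CXC chemokines with a glutamate-leucine-arginine motif before the first cysteine bind CXCR2 on neutrophils and draw them along a gradient into tissue. In the liver they are made by Kupffer cells, endothelium and hepatocytes after injury or infection, and their genes are textbook targets of NF-kB downstream of interleukin 1, TNF and Toll-like receptors. Their transcripts carry AU-rich elements bound by decay factors such as tristetraprolin. IL-6 signals through gp130 to STAT3 and drives the hepatic acute phase response, and HGF signals through the receptor tyrosine kinase MET to the MAP kinases and PI3 kinase.

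The 4 genes lie in 1 cluster on mouse chromosome 5, in the order Cxcl5, Ppbp, Pf4, Cxcl3, Cxcl15, Cxcl1 and Cxcl2 in RefSeq's gene table, with Rassf6 and Mthfd2l as the nearest coding genes outside it. No promoter window of Cxcl5 was available, so its letters were not examined. The 250 bases before the start of Cxcl1, Cxcl2 and Cxcl3 are shown. They are cut from RefSeq promoter windows of build GRCm38.p6, plus strand, printed 5′ to 3′. The full RefSeq windows of 300 bases also hold 50 bases after the start. Over those 300 bases the 3 genes share a longer run, of 13 letters, which is not marked. For the capitals, a window means the 250 bases shown, and the longest shared run was sought in these only. Capitals mark GGGAATTTCCC, the longest run of letters that all 3 windows share, whose first 10 letters are of the NF-kB type, and the TATA-like letters ATAAAAG.
Cxcl1 (chr5:90890995-90891244): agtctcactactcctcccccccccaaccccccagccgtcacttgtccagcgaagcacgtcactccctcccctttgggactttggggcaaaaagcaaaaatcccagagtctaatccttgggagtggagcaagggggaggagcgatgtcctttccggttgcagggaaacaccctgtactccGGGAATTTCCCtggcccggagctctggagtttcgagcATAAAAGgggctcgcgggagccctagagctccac
Cxcl2 (chr5:90903649-90903898): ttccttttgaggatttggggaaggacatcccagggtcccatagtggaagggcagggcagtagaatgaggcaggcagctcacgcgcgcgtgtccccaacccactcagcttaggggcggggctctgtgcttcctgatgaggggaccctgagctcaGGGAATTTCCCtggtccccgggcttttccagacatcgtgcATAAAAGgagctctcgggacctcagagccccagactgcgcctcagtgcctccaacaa
Cxcl3 (chr5:90785851-90786100): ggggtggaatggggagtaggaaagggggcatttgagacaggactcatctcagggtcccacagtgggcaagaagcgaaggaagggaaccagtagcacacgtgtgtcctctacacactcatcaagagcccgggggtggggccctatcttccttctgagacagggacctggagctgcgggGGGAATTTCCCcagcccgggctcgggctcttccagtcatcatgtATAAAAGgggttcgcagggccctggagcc
In these windows GGGAATTTCCC begins 71 bases before the start of Cxcl1, 97 before that of Cxcl2 and 73 before that of Cxcl3, on the plus strand in each. ATAAAAG begins 34, 57 and 29 bases before the same starts. Over 32851 promoter windows of 300 bases (250 before and 50 after a start), GGGAATTTCCC was present on either strand in 14, or 0.0426%, and ATAAAAG on the given strand in 1112, or 3.38%. Both were present in 3 windows, those of Cxcl1, Cxcl2 and Cxcl3. Both sets of letters were chosen with these sequences in view, and a match is a description, not a binding site. Letters of the STAT type TTCNNNGAA (8.3% of all windows), the AP-1 type TGANTCA (7.81%), the C/EBP type TTGCNNAAT (2.4%) and the EGR type GCGNGGGCG (5.55%), searched on both strands, had no match in the 3 windows.

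The level of a gene is given as log2 intensity, in which 1 unit is a factor of 2, and levels of different genes are not set against each other because their probe sets differ. Where sizes of differences are compared between genes, they are those of the probe sets used, which may also differ in how far they respond. Differences were fitted with limma, a linear model across all genes, with 1 mean per group. A gene was called over the time course by limma's F-test over the 7 later hours, and at 1 hour by limma's moderated test, both with Benjamini-Hochberg adjustment over all 14513 genes and a threshold of 0.05. The standard error (SE) of a difference between 2 pairs of arrays was 0.06 for Cxcl1, 0.19 for Cxcl2, 0.25 for Cxcl3 and 0.24 for Cxcl5. "Rose" and "fell" over the time course refer to the hour of the largest absolute difference. Cxcl1 lay above the 40th percentile of its array on every array. Cxcl2 lay at or below it on 1 HGF array, Cxcl3 on 7 unstimulated and 2 HGF arrays, and Cxcl5 on 9 unstimulated and 4 HGF arrays, where an intensity may be background. At 8 to 32 h this holds for 8 of 8 unstimulated arrays of Cxcl5 and 7 of 8 of Cxcl3, and for 4 and 2 of 8 HGF arrays. A fold against such a pair of arrays is given as measured and again as "at least", with each value at or below its array's 40th percentile set to that percentile.

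Array medians lay between 4.88 and 4.97, and arrays of 1 group correlated between 0.996 and 0.998. A control transcript that follows RNA labelling (dap, 3′ minus 5′ end) split the arrays: it read 1.22 to 1.48 on unstimulated arrays up to 4 h (10 arrays) and 2.62 to 3.72 on all others. A hybridisation control (bioB) read 7.71 to 8.08 on all unstimulated arrays and 4.84 to 6.70 on stimulated arrays of 8 to 32 h. Stimulated arrays at 0.5 to 4 h are therefore compared with unstimulated arrays of another labelling class, while comparisons between stimuli, and those with unstimulated cells at 8 to 32 h, stay within 1 class by dap. The part of dap and bioB in the differences was not tested.

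Without a stimulus all 4 transcripts ended lower than they began, after a brief early rise of 2 of them. From 0 h to 32 h Cxcl3 fell by 4.47 on the log2 scale. Cxcl1 fell by 2.97, Cxcl2 fell by 2.11 and Cxcl5 fell by 1.38. With the floor just given, the differences of Cxcl3 and Cxcl5 at 32 h are bounds of -2.78 and -0.70, and without the second unstimulated array of 32 h that of Cxcl5 as measured was -0.88. All 4 genes were called by limma's F-test as lower, where 34.6% of all tested genes fell over these hours and 40.4% rose. At single hours a fall was called for 15.8% of all gene and hour combinations, 7 hours for each tested gene.

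Cxcl1, known as KC in the mouse, read 11.69, 11.67, 11.72 and 11.60 at 0 h, rose to 12.14 and 12.15 at 0.5 h, and read 11.02 and 11.05 at 2 h, 10.78 and 10.81 at 4 h, 10.65 and 10.79 at 8 h, 10.85 and 10.92 at 16 h, 10.60 and 10.73 at 24 h and 8.65 and 8.74 at 32 h. The rise at 0.5 h was 0.47 (adjusted p = 4.03e-08, limma), and from 2 h on every array lay below all 4 arrays of 0 h. Between 2 h and 24 h the difference of Cxcl1 from 0 h lay between -0.64 and -1.01, and at 32 h it was -2.97. Cxcl2, the chemokine MIP-2, read 6.87, 6.95, 6.89 and 6.38 at 0 h, 7.31 and 7.18 at 0.5 h, 6.01 and 6.30 at 2 h, 5.80 and 5.93 at 4 h, 5.42 and 5.18 at 8 h, 5.32 and 5.73 at 16 h, 6.22 and 6.02 at 24 h and 4.78 and 4.56 at 32 h. It was lower than at 0 h from 2 h on, and its array means at 24 h lay above those at 8 and 16 h, an ordering that was not tested.

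Cxcl3, the close relative of Cxcl2, read 7.27, 7.08, 7.04 and 6.88 at 0 h, 7.30 and 7.07 at 0.5 h, 6.71 and 6.79 at 2 h, 4.83 and 5.62 at 4 h, 4.26 and 4.35 at 8 h, 4.20 and 4.73 at 16 h, 3.80 and 3.70 at 24 h and 2.48 and 2.70 at 32 h. Its fall passed the test from 4 h on, with all later arrays below every array of 0 h. Cxcl5, known as LIX, read 5.28, 5.15, 4.58 and 4.92 at 0 h, 5.82 and 5.68 at 0.5 h, 5.51 and 5.30 at 2 h, 4.28 and 4.62 at 4 h, 4.36 and 3.71 at 8 h, 4.29 and 4.21 at 16 h, 4.15 and 3.75 at 24 h and 4.10 and 3.09 at 32 h. It was higher at 0.5 h by 0.77 (adjusted p = 0.0274, limma) and lower from 8 h on. The 0.5 h and 0 h arrays share the labelling class of the early unstimulated arrays, and all falls from 8 h on cross it.

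**Figure D1:**
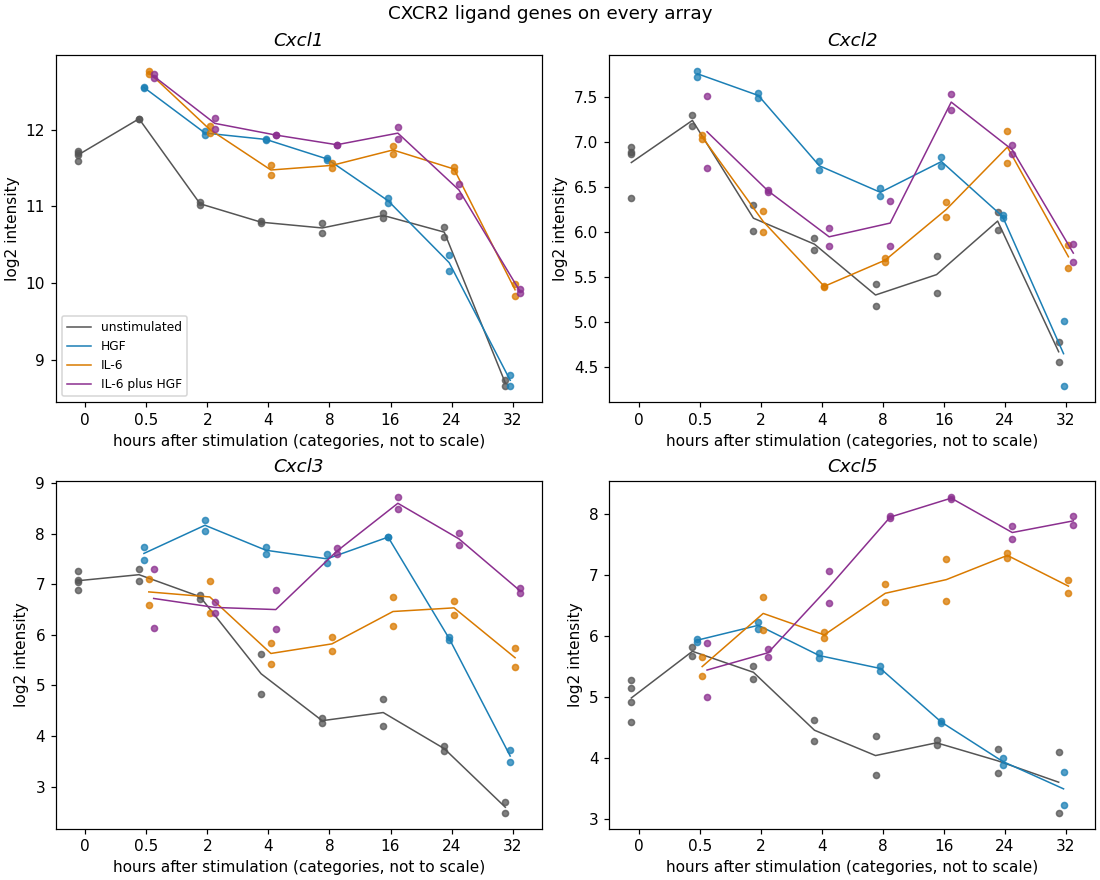
Log2 intensity of Cxcl1, Cxcl2, Cxcl3 and Cxcl5 (vertical axes, different ranges) on all 60 arrays against hours after stimulation (categories, not to scale); each point is 1 array, lines join group means, colours mark the arms. In the unstimulated arm Cxcl3 declines from 6.88 to 7.27 at 0 h to 2.48 and 2.70 at 32 h, while in the IL-6 plus HGF arm Cxcl5 reads 7.97 and 7.82 at 32 h.

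HGF alone raised all 4 ligand transcripts, mostly between 2 and 16 h, and at 24 and 32 h a rise was called for Cxcl3 alone on the probe sets used. Cxcl3 gained most, 11-fold at 16 h (where 1 of 2 unstimulated arrays lay below the 40th percentile), against 2.11-fold at 4 h for Cxcl1, 2.58-fold at 2 h for Cxcl2 and 2.70-fold at 8 h for Cxcl5, which is at least 2.16-fold by the floor. The F-test called 4 of 4 as risen, where 29.8% of tested genes rose, with a median largest difference of 1.40 beside -0.08 over all genes. At single hours a rise was called for 14.7% of all gene and hour combinations.

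Cxcl3 read 7.48 and 7.73 on the HGF arrays at 0.5 h, 8.06 and 8.27 at 2 h, 7.60 and 7.74 at 4 h, 7.59 and 7.41 at 8 h, 7.92 and 7.93 at 16 h, 5.91 and 5.95 at 24 h and 3.73 and 3.48 at 32 h. Each lay above both unstimulated arrays of its hour. The difference was 0.42 and not called at 0.5 h, then 1.41, 2.44, 3.20 and 3.47 at 2, 4, 8 and 16 h, 2.18 at 24 h and 1.01 at 32 h, all 6 called (adjusted p = 4.56e-16 at 16 h and 0.00139 at 32 h, limma). At 32 h both arms of Cxcl3 lay at or below the 40th percentile, so no fold is given there. From 0.5 to 2 h the difference widened with a rising HGF mean and a falling unstimulated mean. From 2 to 8 h it widened because the unstimulated mean fell more than the HGF mean. From 8 to 16 h the HGF arrays rose from 7.59 and 7.41 to 7.92 and 7.93, and the unstimulated mean did not fall. From 2 to 16 h the HGF arrays kept between 7.41 and 8.27.

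Cxcl1 read 12.54 and 12.56 at 0.5 h under HGF, 11.99 and 11.93 at 2 h, 11.86 and 11.89 at 4 h, 11.63 and 11.61 at 8 h, 11.04 and 11.11 at 16 h, 10.16 and 10.37 at 24 h and 8.66 and 8.80 at 32 h. The differences were 0.41, 0.92, 1.08, 0.90 and 0.19 up to 16 h, all called, and both HGF arrays lay above both unstimulated ones at each of these hours. At 24 h Cxcl1 fell by 0.40 under HGF (adjusted p = 1.40e-06, limma), with both HGF arrays below both unstimulated ones, and at 32 h the arrays overlapped (0.03, adjusted p = 0.757).

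Cxcl2 read 7.73 and 7.79 at 0.5 h under HGF, 7.55 and 7.49 at 2 h, 6.78 and 6.69 at 4 h, 6.40 and 6.48 at 8 h, 6.83 and 6.73 at 16 h, 6.19 and 6.16 at 24 h and 4.28 and 5.01 at 32 h. It differed from unstimulated cells by 0.52, 1.37, 0.87, 1.14 and 1.26 up to 16 h, all called and without overlap, and the arrays overlapped at 24 and 32 h (0.05 and -0.02). Cxcl5 read 5.95 and 5.91 at 0.5 h, 6.12 and 6.24 at 2 h, 5.64 and 5.72 at 4 h, 5.42 and 5.51 at 8 h, 4.57 and 4.60 at 16 h, 3.88 and 4.00 at 24 h and 3.22 and 3.76 at 32 h. Its differences of 0.77, 1.23 and 1.43 at 2, 4 and 8 h were called, that of 0.34 at 16 h was not (adjusted p = 0.304, limma), and those of -0.01 and -0.11 at 24 and 32 h came from overlapping arrays.

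IL-6 alone also raised all 4, and at 24 and 32 h a rise was called for each. Cxcl1 was called from 0.5 h on, Cxcl5 from 2 h, Cxcl3 from 8 h and Cxcl2 from 16 h. Cxcl5 was 10.4-fold higher at 24 h as measured, and at least 8.07-fold when unstimulated values below the 40th percentile are set to it. Cxcl3 was 7.75-fold higher at 32 h, or at least 2.39-fold by that floor, and Cxcl1 was 2.32-fold and Cxcl2 2.08-fold higher at 32 h. The F-test called 4 of 4 as risen, where 23.4% of tested genes rose, and a rise at a single hour was called for 10.1% of gene and hour combinations. At 0.5 h only Cxcl1 among the 4 was called. Over 0.5 to 4 h alone the F-test called 2 of the 4, Cxcl1 and Cxcl5, where 39.4% of tested genes were called in either direction.

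Cxcl5 read 5.34 and 5.66 at 0.5 h under IL-6, 6.10 and 6.64 at 2 h, 6.07 and 5.97 at 4 h, 6.85 and 6.55 at 8 h, 7.27 and 6.58 at 16 h, 7.28 and 7.37 at 24 h and 6.71 and 6.93 at 32 h. From 2 h on both arrays lay above both unstimulated arrays of the hour, with differences of 0.97, 1.57, 2.67, 2.68, 3.37 and 3.22, all called (adjusted p = 1.38e-15 at 24 h, limma). At 0.5 h both lay below the unstimulated ones, and the difference of -0.25 was not called.

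Cxcl3 read 6.58 and 7.11 at 0.5 h, 6.42 and 7.07 at 2 h, 5.85 and 5.41 at 4 h, 5.96 and 5.68 at 8 h, 6.74 and 6.17 at 16 h, 6.39 and 6.67 at 24 h and 5.36 and 5.73 at 32 h in the IL-6 arm. Over the first 4 h the arrays overlapped with unstimulated ones and no difference was called (0.40, adjusted p = 0.236 at 4 h, limma). From 8 h on it was higher by 1.52, 2.00, 2.78 and 2.95, without overlap and with every hour called.

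Cxcl1 read 12.77 and 12.73 at 0.5 h, 11.96 and 12.05 at 2 h, 11.55 and 11.41 at 4 h, 11.50 and 11.57 at 8 h, 11.69 and 11.79 at 16 h, 11.52 and 11.46 at 24 h and 9.99 and 9.83 at 32 h. Both IL-6 arrays exceeded both unstimulated ones at all 7 hours, by 0.61, 0.97, 0.68, 0.82, 0.85, 0.82 and 1.21, each called. Cxcl2 read 7.03 and 7.08 at 0.5 h, 6.00 and 6.23 at 2 h, 5.39 and 5.40 at 4 h, 5.71 and 5.66 at 8 h, 6.17 and 6.33 at 16 h, 7.13 and 6.76 at 24 h and 5.60 and 5.85 at 32 h. At 4 h its difference was -0.47, without overlap but short of the threshold (adjusted p = 0.0506, limma), and it was higher by 0.73, 0.82 and 1.06 at 16, 24 and 32 h.

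The brightest Cxcl1 probe set and 1 of the other 2 disagreed at 32 h. The Cxcl1 rises of that hour with IL-6, alone or with HGF, over unstimulated cells and over HGF therefore hold for 2 of 3 probe sets. The second, 1419209_at, gave 1.23 for IL-6 and 1.32 for IL-6 plus HGF at 32 h. The third, 1441855_x_at, gave -0.02 (adjusted p = 0.945, limma) and 0.21 (adjusted p = 0.133). In unstimulated cells its largest difference from 0 h was -1.22 in place of -2.97, also called (adjusted p = 2.79e-16, limma). For HGF against unstimulated cells at 32 h it gave a called rise of 0.28 (adjusted p = 0.0464, limma), which was not called on 1419209_at (0.11, adjusted p = 0.183). Between stimuli at 32 h the third gave -0.29 for IL-6 minus HGF (adjusted p = 0.035, limma), a called difference in the opposite direction, and -0.07 for both minus HGF (adjusted p = 0.726). At 0.5 to 16 h all 3 probe sets gave rises under IL-6, and all 3 rises under HGF from 0.5 to 8 h. The rise under HGF at 16 h was called on 1419209_at (0.22, adjusted p = 0.00264, limma) but not on 1441855_x_at (0.05, adjusted p = 0.786). Names ending in s or x mark probes that several transcripts can share, and cross-hybridisation among these related genes was not tested.

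With both factors Cxcl2, Cxcl3 and Cxcl5 reached their largest differences from unstimulated cells. Those of Cxcl1 and Cxcl2 were smaller than those of Cxcl3 and Cxcl5. At 32 h Cxcl5 was 19.6-fold above unstimulated cells as measured and at least 12.2-fold by the floor, and Cxcl3 was 19.4-fold as measured and at least 5.99-fold. Cxcl1 was 2.29-fold above them at that hour, and Cxcl2 peaked 3.78-fold above them at 16 h. The F-test called 4 of 4 as risen, where 31.3% of tested genes rose, and the median largest difference was 3.10 beside -0.14 over all genes. A rise at a single hour was called for 17% of gene and hour combinations. The 3 comparisons with unstimulated cells use the same unstimulated arrays and are not independent.

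Cxcl3 read 6.14 and 7.30 at 0.5 h, 6.65 and 6.43 at 2 h, 6.11 and 6.89 at 4 h, 7.59 and 7.72 at 8 h, 8.72 and 8.48 at 16 h, 7.78 and 8.01 at 24 h and 6.92 and 6.82 at 32 h under both factors. The differences of -0.47 and -0.21 at 0.5 and 2 h were not called, and those of 1.27, 3.35, 4.13, 4.14 and 4.28 from 4 h on were. Cxcl5 read 5.00 and 5.88 at 0.5 h, 5.79 and 5.66 at 2 h, 6.54 and 7.08 at 4 h, 7.97 and 7.94 at 8 h, 8.28 and 8.25 at 16 h, 7.60 and 7.80 at 24 h and 7.97 and 7.82 at 32 h. It differed by -0.31 and 0.32 at the first 2 hours, not called, and by 2.35, 3.92, 4.02, 3.75 and 4.29 from 4 h on, all called with both arrays above every unstimulated array of the series.

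Cxcl1 read 12.67 and 12.73 at 0.5 h with both factors, 12.15 and 12.02 at 2 h, 11.93 and 11.93 at 4 h, 11.81 and 11.80 at 8 h, 11.87 and 12.04 at 16 h, 11.30 and 11.14 at 24 h and 9.92 and 9.87 at 32 h. It exceeded unstimulated cells at all 7 hours, by between 0.55 at 24 h and 1.20 at 32 h. On 1441855_x_at the Cxcl1 rises at 24 and 32 h were not called (0.25 and 0.21, adjusted p = 0.0648 and 0.133, limma). On 1419209_at both were called (0.54 and 1.32). Cxcl2 read 6.71 and 7.52 at 0.5 h, 6.45 and 6.47 at 2 h, 5.84 and 6.05 at 4 h, 5.85 and 6.35 at 8 h, 7.54 and 7.35 at 16 h, 6.97 and 6.86 at 24 h and 5.67 and 5.86 at 32 h. Its differences of -0.13, 0.30 and 0.08 over the first 4 h were not called, and those of 0.80, 1.92, 0.79 and 1.10 from 8 h on were.

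**Figure D2:**
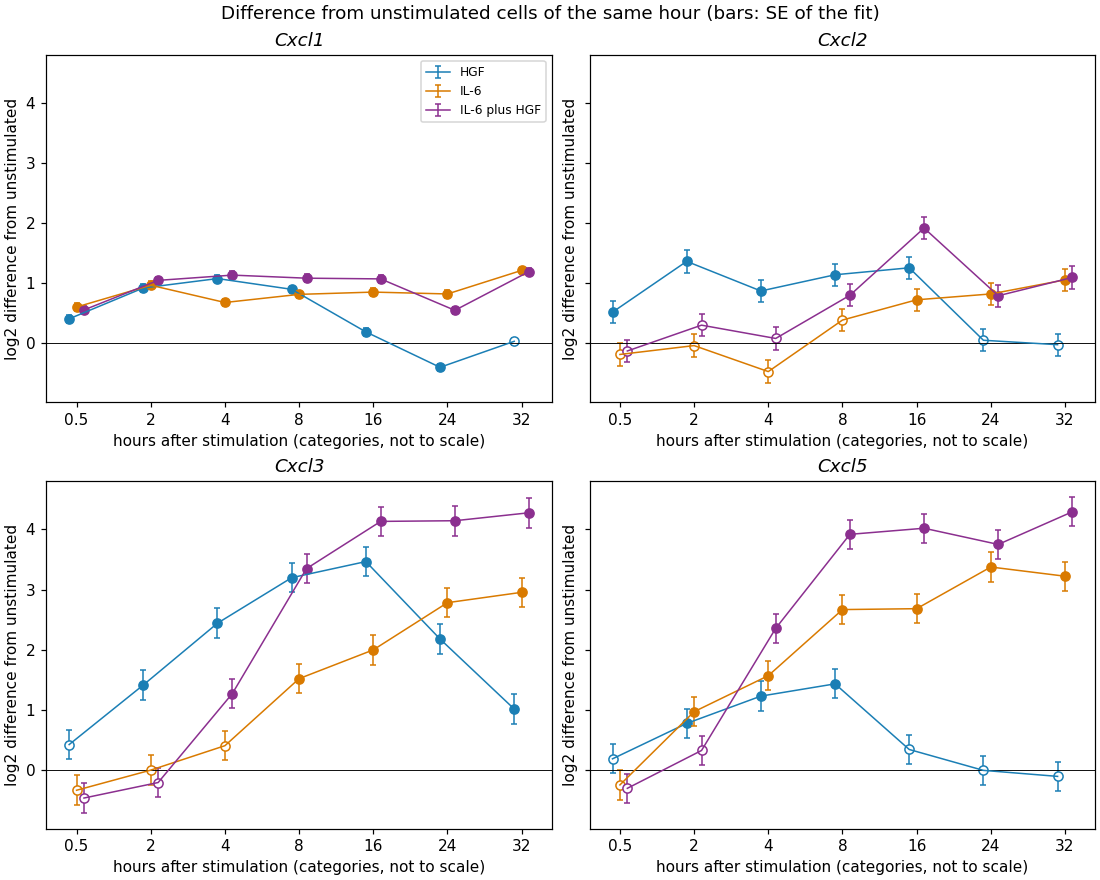
Difference in log2 intensity from unstimulated cells of the same hour (vertical axis, shared) for HGF, IL-6 and both, by hour; bars are the SE of limma's fit and filled points passed limma's test at that hour, open points did not. For Cxcl3 the HGF line peaks at 3.47 at 16 h and drops to 1.01 at 32 h, where the IL-6 plus HGF line reaches 4.28.

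HGF and IL-6 differed in the timing of the chemokine response. At 2 and 4 h Cxcl2 and Cxcl3 were higher with HGF than with IL-6, and at 32 h Cxcl2, Cxcl3, Cxcl5 and, by 2 of its 3 probe sets, Cxcl1 were higher with IL-6. All 4 were called by the F-test between these arms, where 51.2% of tested genes were called in either direction.

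At 4 h the IL-6 minus HGF difference of Cxcl3 was -2.04, with 5.85 and 5.41 against 7.60 and 7.74, and that of Cxcl2 was -1.34, with 5.39 and 5.40 against 6.78 and 6.69. The share of genes lower with IL-6 at 4 h was 8.72%. At 32 h Cxcl5 was higher with IL-6 by 3.33, Cxcl3 by 1.94, Cxcl1 by 1.18 (-0.29 on 1441855_x_at) and Cxcl2 by 1.08, each without overlap on the probe set used, where 12.2% of genes were higher. The values for Cxcl3 and Cxcl5 are as measured, without the floor, against HGF arrays at or below the 40th percentile. These comparisons stay within 1 labelling class by dap, while bioB differed at 32 h (6.50 and 6.54 with HGF, 5.23 and 5.33 with IL-6). It differed the other way at 2 h (5.89 and 5.86 with HGF, 6.71 and 6.59 with IL-6) and at 4 h (5.83 and 5.93, 6.52 and 6.61).

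IL-6 added to HGF lowered Cxcl2 and Cxcl3 early, and all 4 genes were higher at 24 and 32 h. At 2 h Cxcl3 differed by -1.62 between both factors and HGF alone (6.65 and 6.43 against 8.06 and 8.27, adjusted p = 6.03e-06, limma) and Cxcl2 by -1.06 (6.45 and 6.47 against 7.55 and 7.49, adjusted p = 7.99e-05). At 4 h the differences were -1.17 and -0.79, again without overlap. Of all tested genes, 3.79% were lower at 2 h and 10.1% at 4 h in this comparison.

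Cxcl1 and Cxcl5 did not share that early pattern in their calls. Cxcl1 differed by 0.15, 0.13 and 0.06 at 0.5, 2 and 4 h, none called, and Cxcl5 by -0.49 and -0.45 at 0.5 and 2 h, not called, and by 1.13 at 4 h, called. By 32 h Cxcl5 was higher by 4.40, Cxcl3 by 3.27, Cxcl1 by 1.16 (-0.07 on 1441855_x_at) and Cxcl2 by 1.12 than with HGF alone, and 11.2% of tested genes were higher. Both HGF arrays of Cxcl3 and of Cxcl5 lay at or below the 40th percentile at 32 h. Their differences are given as measured, without the floor, and may be too large. Over all hours the F-test called 4 of 4 genes as higher, where 17.7% of genes were called as higher.

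HGF added to IL-6 raised Cxcl2, Cxcl3 and Cxcl5 in the middle hours and moved Cxcl1 by at most 0.46, at 4 h. At 16 h the gain over IL-6 alone was 2.14 for Cxcl3, 1.34 for Cxcl5, 1.19 for Cxcl2 and 0.22 for Cxcl1, all called, where 10.9% of genes rose. The gain of Cxcl1 at 16 h was not called on 1419209_at (0.14, adjusted p = 0.112, limma) or 1441855_x_at (0.26, adjusted p = 0.0827). Cxcl3 kept a gain of 1.36 at 24 h and 1.32 at 32 h, and Cxcl5 one of 1.07 at 32 h, although HGF alone left Cxcl5 at -0.11 against unstimulated cells at that hour. Cxcl1 fell by 0.27 at 24 h (adjusted p = 0.00125, limma), with -0.23 on 1419209_at (adjusted p = 0.00608) and -0.20 on 1441855_x_at (adjusted p = 0.211, not called). The F-test called 4 of 4 as risen, where 23.2% of tested genes rose.

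The effect of HGF at 2 h was smaller in the presence of IL-6 for all 4 genes. The interaction, the combination minus the sum of the single effects on the log2 scale, was negative and largest at 2 h for each: -0.84 for Cxcl1, -1.03 for Cxcl2, -1.62 for Cxcl3 and -1.42 for Cxcl5. The F-test of the interaction called 4 of 4 in this direction, where 14.6% of tested genes were called as negative. At 2 h alone 4.78% of genes were called as negative, and over the 7 single hours 3.31% of gene and hour combinations.

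For Cxcl1 the interaction was also called at 0.5, 4 and 8 h (-0.46, -0.62 and -0.63), and for Cxcl3 at 4, 8 and 16 h (-1.57, -1.37 and -1.33). At 0.5 h the Cxcl1 interaction was not called on 1419209_at (-0.17, adjusted p = 0.269, limma) or 1441855_x_at (-0.39, adjusted p = 0.111). At 8 and 16 h all 4 arms share 1 labelling class by dap, while the unstimulated term at 0.5 to 4 h does not, and bioB is higher on unstimulated arrays at all hours from 2 h on. Cxcl5 turned the other way at 32 h, where the combination exceeded the sum of the single effects by 1.18 (adjusted p = 0.0278, limma). The sum of HGF and IL-6 alone would put Cxcl3 at 16 h 5.46 above unstimulated cells, against 4.13 observed.

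**Figure D3:**
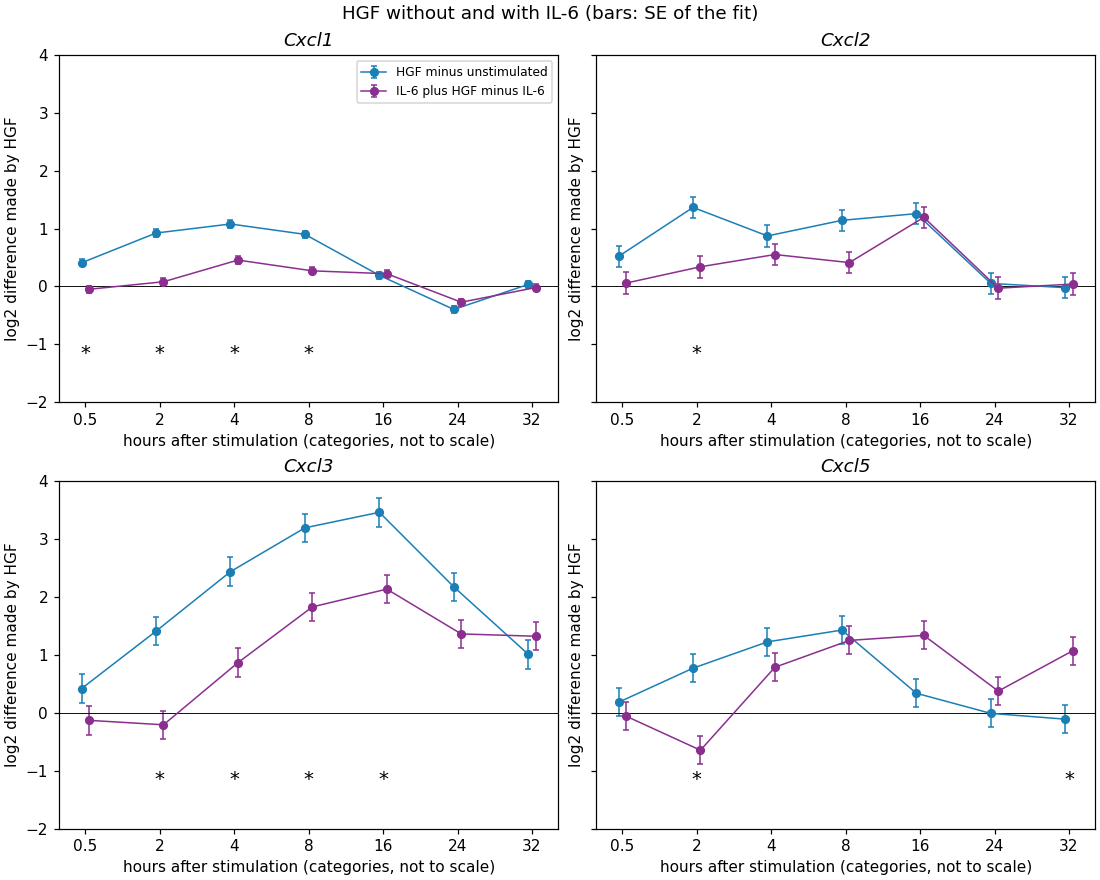
Log2 difference made by HGF without IL-6 (HGF minus unstimulated) and with it (IL-6 plus HGF minus IL-6), by hour; bars are the SE of limma's fit and asterisks mark hours at which limma called the interaction. At 2 h the pair of lines for Cxcl3 stand at 1.41 and -0.21, and at 32 h those for Cxcl5 at -0.11 and 1.07.

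Set against 0 h, a comparison added after the data were seen, Cxcl5 rose above its starting level with IL-6, alone or with HGF, at most hours, and Cxcl1 ended below its own in every arm. With IL-6, Cxcl5 was higher than at 0 h at 6 of 7 hours, by up to 2.34 at 24 h, and Cxcl3 was higher at none and lower at 5. Of all gene and hour combinations with IL-6, 23% were called as higher than at 0 h and 24.2% as lower.

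With both factors, Cxcl5 stood 3.28 above 0 h at 16 h and 2.91 above it at 32 h, and 26.4% of gene and hour combinations were called as higher. Cxcl3 exceeded 0 h by 0.58, 1.53 and 0.83 at 8, 16 and 24 h, and at 32 h the difference was -0.20 (adjusted p = 0.419, limma). Cxcl2 exceeded it by 0.67 at 16 h. With HGF alone Cxcl3 exceeded 0 h by 1.10 at 2 h and 0.86 at 16 h and differed by -3.46 at 32 h, and Cxcl5 exceeded it by 1.19 at 2 h, where 25.4% of gene and hour combinations were called as higher. All stimulated arrays differ from the 0 h arrays in labelling class, and the part of this was not tested.

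**Figure D4:**
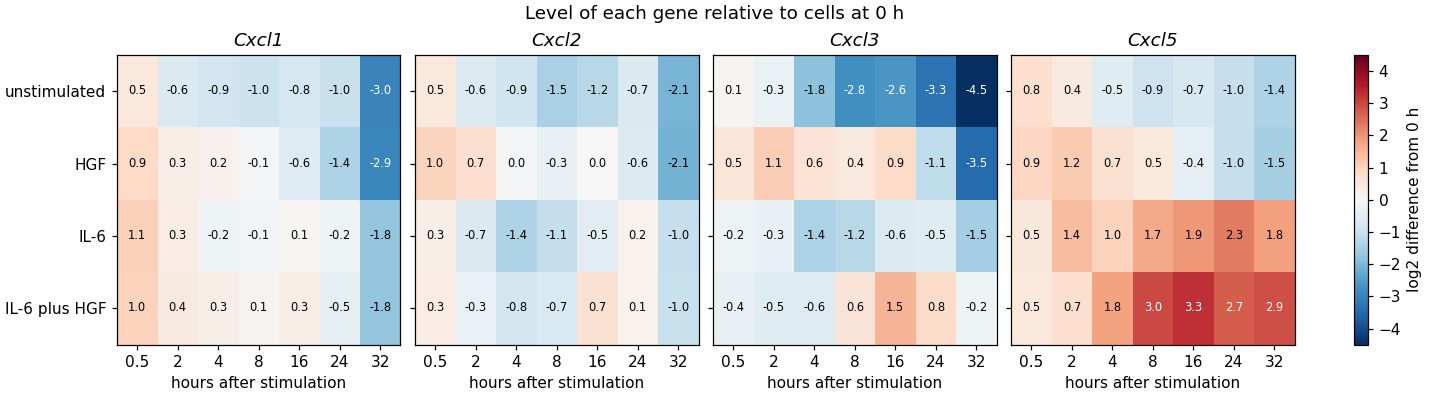
Log2 difference from unstimulated cells at 0 h for each gene (panels), arm (rows) and hour (columns); red is higher and blue lower than at 0 h, and the numbers are the differences to 1 decimal. Cxcl5 is higher at 8 to 32 h in both arms with IL-6, up to 3.28 at 16 h with both factors, while Cxcl1 is lower at 32 h in all 4 arms.

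The 4 genes were compared in the size of their response averaged over 8 to 32 h, within arrays, by an exact two-sided permutation test over all relabellings within hours (smallest possible p = 0.00154) for 6 pairs and 3 stimuli. Of the 18 differences 13 were called after Benjamini-Hochberg adjustment. On the probe sets used, Cxcl3 responded more than Cxcl1 and Cxcl2 to each stimulus, and Cxcl5 more than both to IL-6 and to the combination. With IL-6 at 32 h the 3 probe sets of Cxcl1 itself gave 1.21, 1.23 and -0.02. Probe sets can thus differ in how far a reading moves, and the part of this in the 13 differences was not tested. The responses are also measured against unstimulated values of Cxcl3 and Cxcl5 that mostly lie below the 40th percentile. With all such values set to that percentile, an alternative added after the data were seen, the same 13 differences were called and Cxcl1 minus Cxcl5 with HGF in addition (-0.17, adjusted p = 0.0342, exact permutation test).

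To HGF the mean responses were 2.46 for Cxcl3, 0.61 for Cxcl2, 0.41 for Cxcl5 and 0.18 for Cxcl1. Cxcl3 exceeded Cxcl5 by 2.05 (adjusted p = 0.00252, exact permutation test, the smallest the test can give, same sign at 4 of 4 hours), and by 1.69 with the floor (adjusted p = 0.0139). Cxcl1 and Cxcl2 differed by -0.43 (adjusted p = 0.0492, exact permutation test, same sign at 3 of 4 hours). Leaving out 1 array lost this call in 10 of 32 cases, with values from -0.50 to -0.35 over all 32. Only the 8 HGF and 8 unstimulated arrays of 8 to 32 h enter this difference, and all 10 lost calls came from leaving out 1 of these. The 10 arrays were, in unstimulated cells, the second of 8, 24 and 32 h and both of 16 h, and with HGF the second of 8 and 32 h, both of 16 h and the first of 24 h. The differences of Cxcl5 from Cxcl1 and from Cxcl2 were not called (adjusted p = 0.274 and 0.312, exact permutation test). The former was called without the first unstimulated array of 32 h (-0.37, adjusted p = 0.0128, exact permutation test).

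To IL-6 they were 2.99 for Cxcl5, 2.31 for Cxcl3, 0.93 for Cxcl1 and 0.75 for Cxcl2. Cxcl3 minus Cxcl5 was -0.67 (adjusted p = 0.0116, exact permutation test, same sign at 4 of 4 hours), and over 16 to 32 h alone -0.52, no longer called (adjusted p = 0.0694). Cxcl1 and Cxcl2 differed by 0.18 (adjusted p = 0.149, exact permutation test). To the combination the responses of Cxcl5 (4.00) and Cxcl3 (3.98) had a Cxcl3 minus Cxcl5 difference of -0.02 (adjusted p = 0.915, exact permutation test) and those of Cxcl1 (0.98) and Cxcl2 (1.15) one of -0.18 (adjusted p = 0.312), and neither value shows that the genes act alike.

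Over the 29 group means, Cxcl2 and Cxcl3 had the highest correlation with each other of all 14512 other genes (Pearson r = 0.82). Over the 21 stimulated minus unstimulated differences r was 0.78, and there Cxcl3 ranked 12 for Cxcl2 and Cxcl2 ranked 274 for Cxcl3. These values are descriptions over groups that share arrays and hours. Cxcl1 correlated with Cxcl2 at 0.77, with Cxcl3 at 0.70 and with Cxcl5 at 0.42 over group means, but at 0.36, 0.17 and 0.59 over the differences. Cxcl3 with Cxcl5 gave 0.66 and 0.73, and Cxcl2 with Cxcl5 0.40 and 0.52.

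By the same measure the 3 other genes most like Cxcl1 were Errfi1, a feedback inhibitor of the EGF receptor (0.92, and 0.91 over the differences), 2310030G06Rik (0.90 and 0.37) and the sialyltransferase gene St3gal1 (0.90 and 0.52). Those most like Cxcl2, with the other ligands left out, were Klhl5 (0.79 and 0.29), the kinase gene Irak2 of interleukin 1 signalling (0.76 and 0.56) and Ipmk, an inositol phosphate kinase (0.75 and 0.59). For Cxcl3 they were Ccbe1 (0.82 and 0.79), Plekha3 (0.80 and 0.81) and the sorting nexin gene Snx9 (0.79 and 0.89). Pnp, a purine nucleoside phosphorylase, was most like Cxcl5 (0.89 and 0.90), followed by the mitochondrial superoxide dismutase gene Sod2 (0.89 and 0.82) and 4930581F22Rik (0.89 and 0.88).

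Neighbours within and beside the cluster did not show differences of the size of Cxcl3 and Cxcl5. Ppbp, the platelet chemokine gene between Cxcl5 and Pf4, and Cxcl15, the lung chemokine gene, lay below the 40th percentile on all 60 arrays. Pf4, platelet factor 4, was tested and not called under any stimulus, with largest differences of -0.17 for HGF, 0.18 for IL-6 and -0.35 for both. Beyond the cluster Mthfd2l, a mitochondrial folate enzyme, rose by up to 0.56 with HGF, 0.35 with IL-6 and 0.52 with both (adjusted p = 3.21e-12, 0.000361 and 9.82e-11, limma), and Rassf6 had no difference above 0.33 in size.

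The receptor side was dim. Cxcr2 exceeded the 40th percentile on 1 of 60 arrays, and Cxcr1 has no probe set of its own name. Ackr1, the atypical receptor that binds these chemokines, read a median of 5.45 in unstimulated, 5.42 in HGF, 5.39 in IL-6 and 5.47 in IL-6 plus HGF arrays and was not called under any stimulus. Mif, a cytokine that can also bind CXCR2, rose by 0.27 at 32 h with HGF fell by 0.23 at 4 h with IL-6 and fell by 0.28 at 2 h with both. Cxcl17, a CXC chemokine placed on the same list although its receptor is not settled, fell by 0.60 at 16 h with HGF and rose by 0.74 at 32 h with IL-6. Of the 8 genes on this list 7 were measured and 4 tested: 1 rose and 1 fell with HGF, 1 and 1 with IL-6, and 0 and 1 with both.

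For the gene lists that follow, the shares of all tested genes that rose and fell were 29.8% and 32.8% with HGF, 23.4% and 31.7% with IL-6, and 31.3% and 36.7% with both. Of 13 neutrophil markers 11 were measured and 6 tested, and S100a8, Mpo, Mmp8 and Itgam lay below the 40th percentile on every array and S100a9 on all but 1. Csf3r, Elane and Camp lay above it on all 60 arrays, Mmp9 on 59 and Ngp on 44. The log2 of their summed intensities ranged from 7.62 to 7.93 in unstimulated, 7.72 to 7.91 in HGF, 7.61 to 7.98 in IL-6 and 7.65 to 8.02 in IL-6 plus HGF arrays. Of the 6 tested, 0 were called with HGF or both and 1, Ngp, rose with IL-6 (0.36 at 2 h, adjusted p = 0.00813, limma).

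Markers of Kupffer cells, which can make these chemokines, were present and differed between arms. Of 12 markers 11 were tested, and Timd4 lay below the 40th percentile on every array. With HGF 1 rose and 6 fell, with IL-6 6 rose and 2 fell, and with both 0 rose and 4 fell, the last near the share of all genes that fell. Cd68 fell under every stimulus, with differences at 4 h of -0.87 with HGF, -0.90 with IL-6 and -1.23 with both. Vsig4 rose by 1.16 with IL-6 at 24 h, and its differences at 16 h were -0.88 with HGF and -0.88 with both, all called. C1qc rose by 0.85 with IL-6 at 24 h, fell by 0.55 with HGF at 4 h and was not called with both. Their log2 summed intensity ranged from 9.29 to 10.06 in unstimulated, 9.22 to 9.70 in HGF, 9.22 to 9.73 in IL-6 and 9.14 to 9.65 in IL-6 plus HGF arrays. Of 11 tested endothelial markers, 0 rose and 10 fell with HGF, 3 rose and 3 fell with IL-6, and 2 rose and 6 fell with both, with sums between 9.19 and 10.19 over all arrays. The part of other cell types in the chemokine differences was not tested. Hepatocyte markers summed to between 14.91 and 16.20, and 8 of the 10 tested fell with each single stimulus and 9 with both.

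NF-kB subunits and feedback genes, whose pathway classically drives these chemokines, moved in both directions, as all tested genes did. Of 19 tested, 7 rose and 8 fell with HGF, 9 rose and 6 fell with IL-6, and 12 rose and 5 fell with both, with median largest differences of -0.18, 0.18 and 0.28 beside -0.08, -0.10 and -0.14 over all genes. With HGF the inhibitor gene Nfkbib fell by 0.65 at 0.5 h, Ikbkg, the regulatory subunit of the IkB kinase, fell by 0.57 at 16 h, and Nfkbiz, an inducible IkB protein that co-activates NF-kB p50, rose by 0.64 at 0.5 h. With IL-6 Bcl3 rose by 1.13 at 4 h and Nfkbiz by 1.50 at 32 h, and Nfkbib fell by 0.65 at 4 h. With both factors Nfkbiz rose by 1.77 at 32 h and Bcl3 by 1.29 at 4 h, and Ikbkg fell by 0.64 at 16 h.

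Receptors and adaptors of interleukin 1, TNF and Toll-like signalling moved in both directions. Of 18 tested, 9 rose and 5 fell with HGF, 10 and 4 with IL-6, and 13 and 3 with both. The median largest differences were 0.26, 0.38 and 0.51, beside -0.08, -0.10 and -0.14 over all genes. With HGF Il1rn, the interleukin 1 receptor antagonist, rose by 1.38 at 16 h, the adaptor gene Tirap by 0.43 at 4 h and Ly96, the partner of Toll-like receptor 4, by 0.66 at 8 h. With IL-6 the endotoxin receptor gene Cd14 rose by 1.68 at 32 h, the interleukin 1 receptor gene Il1r1 by 1.76 at 4 h and the adaptor gene Myd88 by 1.15 at 32 h. With both factors Myd88 rose by 1.33 at 32 h, Il1r1 by 1.89 at 4 h and Irak3, a brake on this pathway, by 1.57 at 16 h.

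Genes of cytokine messenger RNA decay rose in most cases: 7 of 12 with HGF, 9 with IL-6 and 11 with both, and 4, 1 and 0 fell. The median largest differences were 0.29, 0.32 and 0.39, beside -0.08, -0.10 and -0.14 over all genes. Zfp36, which encodes tristetraprolin, a protein that destabilises AU-rich transcripts, rose at 0.5 h by 0.96 with HGF, 2.08 with IL-6 and 2.45 with both. Its relative Zfp36l1 rose by 0.53 at 16 h with HGF, 0.48 at 2 h with IL-6 and 0.81 at 2 h with both. Hnrnpd, the AU-rich element binding protein AUF1, rose by 0.47 at 8 h with HGF and 0.45 at 16 h with both, and Mapkapk2, a kinase that acts on tristetraprolin, fell by 0.36 at 2 h with IL-6.

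AP-1, EGR and C/EBP factors rose in 10 of 13 cases with HGF, 9 with IL-6 and 11 with both, and 2, 3 and 1 fell. Median largest differences were 0.66, 0.70 and 1.22, beside -0.08, -0.10 and -0.14 over all genes. With HGF Egr1 rose by 2.26 at 2 h, Fosl1 by 1.64 at 8 h and Fos by 1.87 at 0.5 h. With IL-6 Cebpd rose by 2.97 at 8 h, Cebpb by 0.70 at 16 h and Junb by 1.06 at 8 h. With both factors Cebpd rose by 3.09 at 8 h, Egr1 by 3.23 at 2 h and Junb by 1.63 at 16 h.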

How the data were processed

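The authors deposited log2 intensities of 45101 probe sets on 60 Affymetrix Mouse430_2 arrays, hybridised with biotin-labelled RNA from a one-cycle protocol, per the labels. Their summarisation and scaling are not given in the sources used, and they were taken as deposited. Of the probe sets 34958 have 1 gene symbol, 932 several and 9211 none; only the first were used, 1 per gene by the highest mean, for 18194 genes. A gene was tested when above the 40th percentile of its array (4.28 to 4.40) on at least 2 arrays. limma 3.58.1 in R 4.3.3 fitted 1 mean per group (eBayes with trend, 31 residual degrees of freedom). None of 1770 array pairs was identical. On simulated data for HGF against unstimulated cells, over 14513 genes, 49 of 50 genes changed 1.3-fold and 50 of 50 changed 1.5-fold were called, with 11 of 14313 unchanged ones. The change was set at every later hour and the noise was independent between arrays. Recovery of changes confined to some hours was not simulated. The 4 genes, the lists and the motif letters were chosen with earlier results of these data known. Named genes are the 4 ligands, all measured genes of the ligand and receptor list, the 3 with the smallest adjusted p in each other list described, the 3 most alike per ligand, and cluster neighbours and markers added after their values were seen. The number of arrays limits the precision.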

Additional observations from a re-analysis of the deposited data

Results flagged for a closer look

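At 0 h 1 of the 4 unstimulated arrays read 6.38 for Cxcl2, while the others read 6.87 to 6.95. The gap to its nearest neighbour was 0.863 of the range, above the critical value of Dixon's test for 4 samples. Chance gives about 1 such value in 20 sets of 4 readings. The 4 genes were looked at on the same 4 arrays, so their readings are not independent.

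The effect of HGF differed with and without IL-6 for all 4 genes by limma's F-test of the interaction, with the largest difference at 2 h: -0.84 for Cxcl1, -1.03 for Cxcl2, -1.62 for Cxcl3 and -1.42 for Cxcl5. The unstimulated arrays of that hour belong to another labelling class than the stimulated ones, and the part of this was not tested. At 8 h, within 1 class by dap, the interaction was -0.63 for Cxcl1 and -1.37 for Cxcl3, both called, and -0.73 for Cxcl2 and -0.18 for Cxcl5, not called.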

How the results depend on the processing

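All 4 genes were called by limma's F-test in each of the 8 comparisons under quantile normalization, without the filter or with it at the 60th percentile, with a gene's probe sets averaged, with a fit on the compared arms, with other variance models and without any 1 array (4 to 4 called). With the replicate number as a block, 4 were called in each comparison and 149 single-hour differences in place of 147 of 224. Arrays that share a number did not deviate together (correlations from -0.27 to 0.25 over 378 pairs of groups), so the numbers do not pair them, and the block changed no F-test call. Other settings gave 141 to 151 single-hour calls and leaving out 1 array 144 to 155. At the hour of the largest Cxcl1 difference, the other probe sets kept its direction in 14 of 16 cases. The exceptions, at 32 h on 1441855_x_at, were IL-6 against unstimulated cells (-0.015) and both factors against HGF (-0.071).

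Restricting the hours changed results, by the construction of the test. Over 0.5 to 4 h, 2 genes were called for IL-6 against unstimulated cells and 3 each for both factors against unstimulated, HGF and IL-6 and for IL-6 against HGF. There the largest differences changed sign for Cxcl2 with IL-6 (-0.47), Cxcl2 and Cxcl3 between both factors and HGF (-1.06 and -1.62), Cxcl1 and Cxcl5 between IL-6 and HGF (-0.40 and -0.43) and Cxcl5 in unstimulated cells (0.77). Over 8 to 32 h they changed sign for Cxcl1 between both factors and IL-6 (-0.27), Cxcl2 and Cxcl3 between IL-6 and HGF (1.08 and 1.94) and the interaction of Cxcl5 (1.18), and the interaction of Cxcl2 was not called (-0.73, adjusted p = 0.278, limma). The number of all genes called fell over 0.5 to 4 h from 6034 to 2423 for both factors against HGF, 6398 to 3339 for both against IL-6, 7426 to 2503 for IL-6 against HGF, 4872 to 3013 for the interaction and 10878 to 2950 for unstimulated cells against 0 h, and over 8 to 32 h to 2862 for the interaction.

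Of 18 pair differences 13 were called, 11 to 13 under other settings and 12 to 14 without 1 array, and 14 with values floored at the 40th percentile. Cxcl3 minus Cxcl5 with both factors turned to 0.16 over 16 to 32 h and ranged from -0.17 to 0.13 without 1 array. The Cxcl1 and Cxcl2 difference with HGF ranged from -0.50 to -0.35 and was not called with the mean over probe sets (adjusted p = 0.0534, exact permutation test) or over 16 to 32 h (adjusted p = 0.103). With 2 arrays per group and dim unstimulated values of Cxcl3 and Cxcl5, small or late differences are the least precise.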

Other observations

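Chemokines that act on other receptors included genes that rose and genes that fell. Of 21 tested CXC, CC and CX3C genes, 2 rose and 8 fell with HGF, 4 rose and 9 fell with IL-6, and 4 rose and 9 fell with both. Over all tested genes 29.8% rose and 32.8% fell with HGF, 23.4% and 31.7% with IL-6, and 31.3% and 36.7% with both. Median largest differences were -0.28, -0.16 and -0.15, beside -0.08, -0.10 and -0.14 over all genes. Cxcl13, a B cell attractant, fell by 1.92 at 24 h with HGF, fell by 1.80 at 32 h with IL-6 and fell by 2.11 at 24 h with both. Cxcl10, the interferon-inducible CXCR3 ligand, rose at 2 h by 1.34, 2.78 and 4.11. Ccl2, the monocyte attractant, fell by 1.01 at 4 h with IL-6 and fell by 1.13 at 4 h with both, and Ccl9 fell by 1.48 at 24 h with HGF.

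Of 10 tested genes for neutrophil growth factors, adhesion and secreted partners, 5 rose and 3 fell with HGF, 4 rose and 3 fell with IL-6, and 6 rose and 2 fell with both. Median largest differences were 0.33, 0.31 and 0.48, beside -0.08, -0.10 and -0.14 over all genes. Icam1, the endothelial and hepatocyte ligand of neutrophil integrins, rose at 32 h by 1.63 with IL-6 and 1.66 with both. The acute phase gene Saa3 rose by 1.95 and 2.66 and the siderophore-binding lipocalin gene Lcn2 by 1.04 and 0.86 at the same hour. With HGF Lif rose by 0.94 and Vcam1 by 1.01 at 4 h, and Il17ra, the interleukin 17 receptor gene, by 0.68 at 16 h.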
